A study of Homo sapiens with 12 samples.

Results

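Expression of 8 genes for secreted plasma proteins was examined in A549, a human lung adenocarcinoma cell line. They were the 3 fibrinogen chains (FGA, FGB and FGG), the protease inhibitor SERPINA1, the iron carrier TF, the complement protein C3, the vitamin B12 binder TCN1 and the lipase inhibitor ANGPTL4. All probe sets whose only gene symbol in the probe table was one of these names were taken. This gave 18 probe sets of 54613, of which 14 passed a filter on dim probe sets, and every gene kept at least 1. The genes were chosen by their levels and by their SP minus non-SP and antibody differences in these same arrays, so these values are given as descriptions without a test.

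Sorting followed a 90 min stain in 5 µg/ml of a Hoechst dye that binds DNA. Cells that export the dye formed the side population (SP), and all others the non-SP fraction. The 4 groups were SP cells of cultures kept for 48 h in 100 µg/ml of a monoclonal antibody to EpCAM, non-SP cells of such cultures, SP cells of untreated cultures and non-SP cells of untreated cultures. Each group held 3 biological replicates of the same line, 12 Affymetrix arrays in all, and this number limits the precision. By its label the antibody is anti-mouse EpCAM, and whether mouse was the host or the target is left unsaid.

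Fibrinogen is a plasma glycoprotein built from pairs of Aα, Bβ and γ chains, encoded by FGA, FGB and FGG. Thrombin cleaves it to fibrin, the mesh of a clot. Hepatocytes make most of it, and the 3 genes, neighbours on chromosome 4, are switched on together in the acute-phase response by interleukin-6 and glucocorticoids. Lung epithelial cells can also make fibrinogen under these signals. SERPINA1 and C3 are acute-phase proteins as well, whereas TF is lowered in that response in man. ANGPTL4 is instead a target of fatty acid sensing and hypoxia.

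The bases just before the starts of the fibrinogen genes, whose levels varied together across the arrays, are shown beside those of TCN1, which differed most between the sorted fractions. TCN1 also varied with the chains, with r of 0.89 to their mean profile over the 12 arrays. Whether the bases relate to the levels was not tested. The windows are RefSeq sequences on GRCh38.p14, written 5′ to 3′ on the strand of the gene, each ending at the base before the annotated start. FGA lies at chr4:154590743-154590992 on the minus strand, FGB at chr4:154562730-154562979 on the plus strand, FGG at chr4:154612657-154612906 on the minus strand and TCN1 at chr11:59866488-59866737 on the minus strand. Capitals mark CTGGGA, the core of an interleukin-6 response element known from acute-phase genes, and ATTAAC, one side of the HNF1 site known from liver genes, or their reverse complements TCCCAG and GTTAAT.
FGA: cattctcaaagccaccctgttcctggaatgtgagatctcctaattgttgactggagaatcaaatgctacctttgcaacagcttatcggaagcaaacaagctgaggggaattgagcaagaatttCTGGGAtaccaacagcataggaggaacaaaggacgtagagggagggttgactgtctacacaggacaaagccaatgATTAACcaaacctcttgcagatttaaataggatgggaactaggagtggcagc
FGB: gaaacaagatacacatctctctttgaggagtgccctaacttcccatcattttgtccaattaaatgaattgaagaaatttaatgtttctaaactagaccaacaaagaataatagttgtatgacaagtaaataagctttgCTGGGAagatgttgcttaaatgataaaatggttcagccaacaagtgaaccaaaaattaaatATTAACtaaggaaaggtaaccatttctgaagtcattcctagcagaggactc
FGG: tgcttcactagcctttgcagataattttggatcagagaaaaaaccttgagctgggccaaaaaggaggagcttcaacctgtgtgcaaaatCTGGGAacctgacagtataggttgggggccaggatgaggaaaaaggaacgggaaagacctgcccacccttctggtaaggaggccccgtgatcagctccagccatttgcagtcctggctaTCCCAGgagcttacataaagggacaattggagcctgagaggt
TCN1: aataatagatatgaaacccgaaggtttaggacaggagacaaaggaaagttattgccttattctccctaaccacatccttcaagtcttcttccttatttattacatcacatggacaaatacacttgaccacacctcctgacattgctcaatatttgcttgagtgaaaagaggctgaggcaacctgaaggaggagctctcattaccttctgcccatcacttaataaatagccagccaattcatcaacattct

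FGA and FGB each held both motifs. In FGA, CTGGGA began 127 bases and ATTAAC 52 bases before the start, and in FGB 112 and 51 bases before it. FGB has another annotated start, with the window chr4:154562761-154563060, and the same motifs lie 143 and 82 bases before that start. FGG held CTGGGA 161 bases before the start and TCCCAG 42 bases before it, and TCN1 held neither motif. The motifs did not overlap in these windows. The table had windows for 7 of the 8 genes, 10 windows in all, each of 300 bases with 250 before and 50 after a start. SERPINA1 also held both motifs in 1 of its windows, chr14:94388553-94388852 on the minus strand, with TCCCAG 131 bases and GTTAAT 76 bases before the start and CTGGGA 29 bases past it. Its other window and those of TF and ANGPTL4 held neither. Over 35116 promoter windows of that length, 33.3% held CTGGGA on either strand, 6.88% held ATTAAC and 1.69% held both. A match describes letters and not a bound site.

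The fibrinogen chains varied most between replicates and little between fractions. FGA, by probe set 205650_s_at, had deposited log2 values of 8.42, 11.31 and 11.40 in anti-EpCAM SP cells and 8.03, 11.07 and 11.32 in anti-EpCAM non-SP cells for replicates 1, 2 and 3. In untreated cells the FGA values were 8.73, 10.04 and 11.59 in SP and 8.17, 9.76 and 11.35 in non-SP. Replicate 1 was the lowest array of every group, and the 4 groups overlapped almost fully. FGA averaged 10.38 ± 1.69 in anti-EpCAM SP, 10.14 ± 1.83 in anti-EpCAM non-SP, 10.12 ± 1.43 in untreated SP and 9.76 ± 1.59 in untreated non-SP cells (SD, n = 3 each). Since the arrays hold RNA of whole sorted fractions, fewer cells that express a gene and less of its RNA per cell cannot be told apart.

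FGB, by 204988_at, had log2 values of 8.62, 11.91 and 12.21 in anti-EpCAM SP and 8.24, 11.74 and 12.17 in anti-EpCAM non-SP cells. Untreated SP cells had 8.90, 10.73 and 12.30, against 8.42, 10.59 and 12.22 in untreated non-SP cells. The arrays came in nearly the same order as for FGA. FGG, by 219612_s_at, had 8.95, 12.25 and 12.61 in anti-EpCAM SP and 8.72, 12.28 and 12.09 in anti-EpCAM non-SP cells. For FGG, untreated SP cells had 9.27, 10.69 and 12.66, against 8.59, 10.55 and 12.74 in untreated non-SP cells. In both treatments replicate 1 was again low and replicate 3 near the top.

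**Figure D1:**
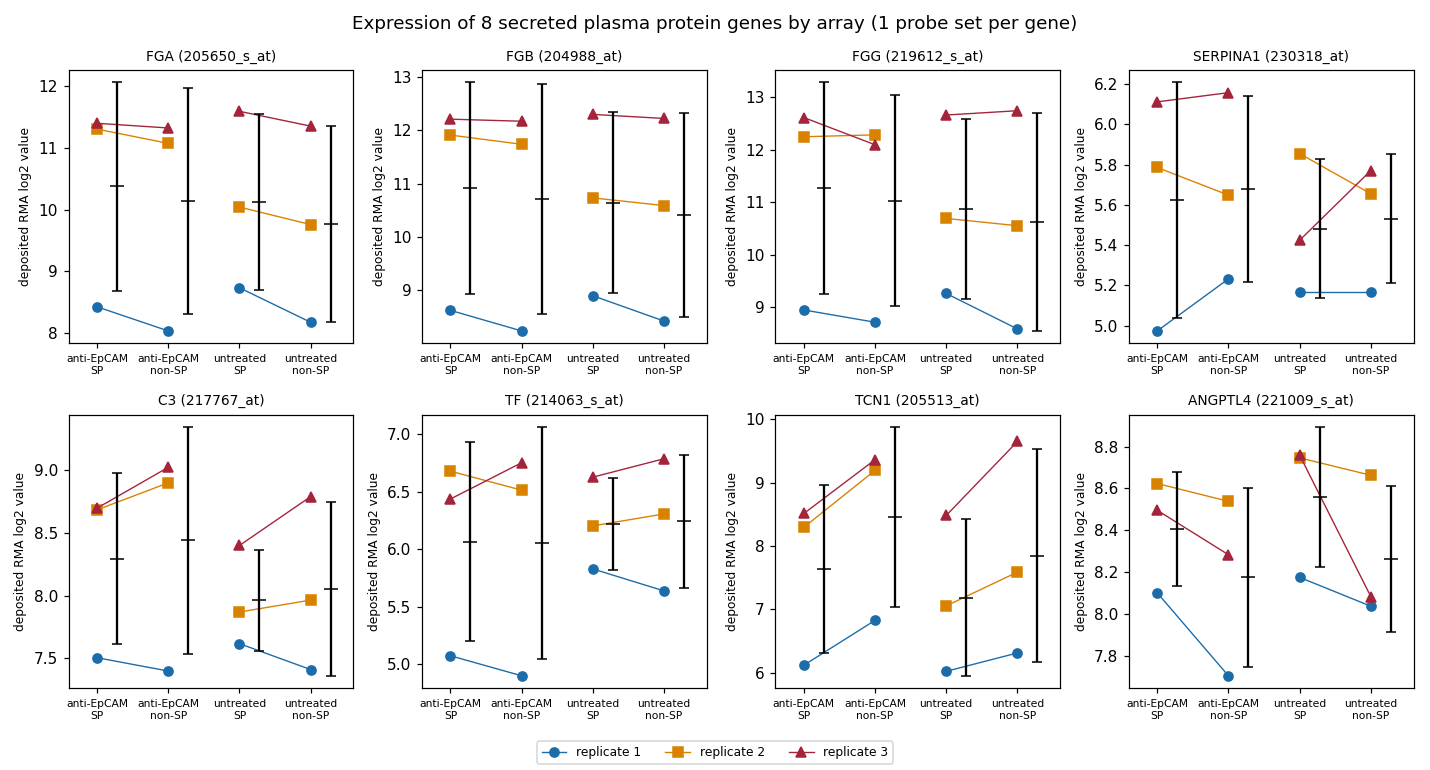
Deposited RMA log2 values of the 8 genes (1 probe set per gene) in the 12 arrays; points are arrays, coloured by replicate, lines join the SP and non-SP array of a replicate, and bars give the mean ± SD of a group (n = 3). In FGA, FGB and FGG replicate 1 lies well below the other replicates in every group, while the joined SP and non-SP arrays lie close together.

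Because the arrays appear to have been normalised in pairs, levels across pairs were compared after quantile normalisation of all 12 arrays. On that log2 scale the 12 arrays spanned 3.21 for FGA (9.22-fold), 3.72 for FGB (13.2-fold) and 3.86 for FGG (14.6-fold) by the chosen probe sets. The span depended on the probe set, at 3.70 for FGA 205649_s_at, 1.41 for FGA 231671_at and 5.41 for FGB 216238_s_at. The values that follow are again by the chosen probe sets. The mean of the SP and non-SP array was higher in anti-EpCAM replicate 3 than in anti-EpCAM replicate 1 by 7.36-fold for FGA, 11.5-fold for FGB and 9.71-fold for FGG. In untreated cells the same ratios were 6.71-fold, 10.1-fold and 11.4-fold. All 3 chains therefore showed about the same step in both treatments. Replicate 2 differed by treatment, with the anti-EpCAM pair above the untreated pair by 0.98 for FGA, 0.87 for FGB and 1.35 for FGG on the log2 scale. The labels do not tie a replicate number of treated cells to the same number of untreated cells.

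The SD between replicates of a treatment, taken over pair means, was 1.79 for FGG, 1.79 for FGB and 1.48 for FGA on the quantile-normalised log2 scale. Among 14649 genes these were the 10th, 11th and 23rd largest, against a median of 0.18 and a 95th percentile of 0.47. TCN1 had an SD of 1.18 and ranked 45th. C3 and TF had SDs of 0.47 and 0.44, near the 95th percentile, whereas ANGPTL4 (0.25) and SERPINA1 (0.24) lay nearer the median.

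**Figure D2:**
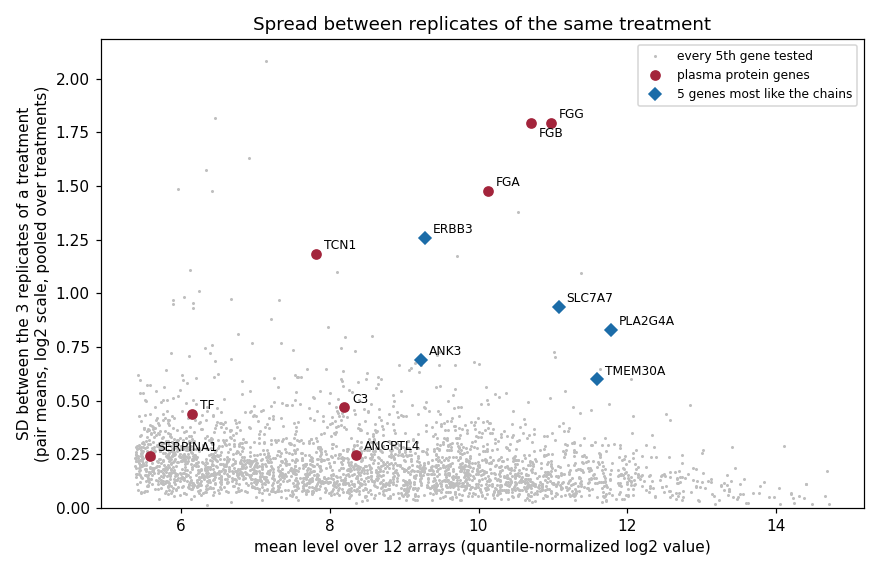
SD between the 3 replicates of a treatment, over means of the SP and non-SP array and pooled over both treatments (y axis, log2), against mean level (x axis, quantile-normalised log2). Grey points are every 5th gene tested, red points the 8 plasma protein genes and blue points the 5 genes most like the chains; FGG and FGB stand at 1.79 and FGA at 1.48.

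The 3 chains varied together. Over the 12 quantile-normalised arrays, which form 6 pairs and are not independent, Pearson r was 0.996 between FGA and FGB, 0.993 between FGA and FGG and 0.99 between FGB and FGG. Against the mean centred profile of the chains, r was 0.91 for C3, 0.89 for TCN1 and 0.82 for TF. The chosen probe sets of SERPINA1 and ANGPTL4 had r of 0.17 and 0.11. These correlations are descriptions, and all genes share the same arrays. The deposited array medians, 5.58 to 6.24, had r of 0.95 with the chain profile, and their part in the levels was not tested. The difference between the 3′ and 5′ GAPDH control probe sets, a measure of RNA integrity, had r of -0.51 with it, and its part was not tested either.

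The other probe sets of SERPINA1, TF and ANGPTL4 did not all share the profile of the chosen one. SERPINA1 encodes α1-antitrypsin, the inhibitor of neutrophil elastase. Its brightest probe set, 230318_at, had log2 values of 4.97 to 6.16, and 211429_s_at had 4.18 to 6.92. The second of these had r of 0.84 with the chain profile, and 202833_s_at, below the filter, had r of 0.87. For SERPINA1 211429_s_at, values were 4.63, 5.50 and 6.59 in anti-EpCAM SP and 4.37, 5.71 and 6.84 in anti-EpCAM non-SP cells. Untreated SP cells had 4.48, 4.73 and 6.35, against 4.18, 5.04 and 6.92 in untreated non-SP cells. Replicate 3 was the highest in every group, as for FGA and FGB. ANGPTL4 223333_s_at likewise had r of 0.84, while 221009_s_at did not follow the chains. TF had r of 0.33 by 214064_at and, below the filter, 0.84 by 203400_s_at and -0.54 by 220109_at, besides 0.82 by the chosen 214063_s_at. SERPINA1, TF and ANGPTL4 thus have no single profile on these arrays.

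By the same measure over 12 arrays, the 5 genes most like the chain profile were TMEM30A (r = 0.9937), ANK3 (0.9933), ERBB3 (0.9929), PLA2G4A (0.9927) and SLC7A7 (0.9916). TMEM30A is a subunit of phospholipid flippases, ANK3 a membrane-cytoskeleton adaptor, ERBB3 a neuregulin receptor, PLA2G4A a cytosolic phospholipase and SLC7A7 an amino acid transporter subunit. Likeness of this kind was common, since 624 genes (4.26%) had r above 0.9, with a median r of 0.0282 over all genes. The ranges of these genes were smaller than those of the chains, at 1.27 (TMEM30A), 1.51 (ANK3), 2.65 (ERBB3), 1.74 (PLA2G4A) and 2.04 (SLC7A7) on the log2 scale.

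**Figure D3:**
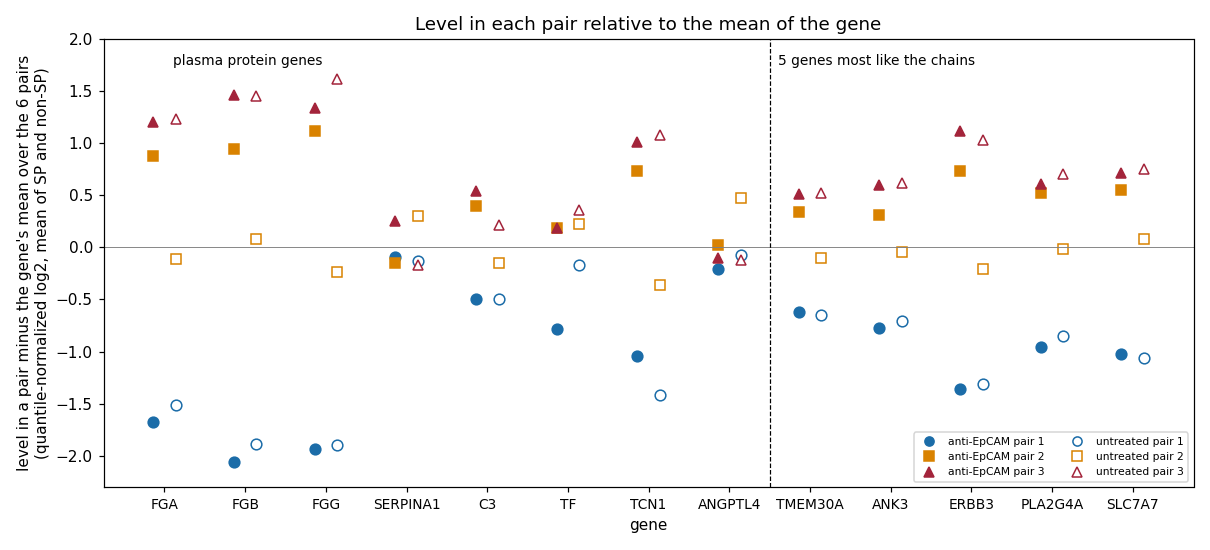
Level of each gene in each of the 6 pairs (mean of the SP and non-SP array) minus the mean of the gene over the pairs (quantile-normalised log2); filled symbols are anti-EpCAM pairs, open symbols untreated pairs. The fibrinogen chains, TCN1 and the 5 genes with r of 0.9916 or more lie lowest in both pairs numbered 1 and highest in a pair numbered 3.

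Of 16 tested regulators of fibrinogen and acute-phase genes, 12 had a positive r with this profile and 4 a negative one, against 51.2% positive over all genes. Those of the largest r on either side are named here, chosen after their values were seen. The sides are not cut alike, since positive ones with r of up to 0.81 (OSMR) are left out. The array medians themselves had r of 0.95 with this profile. The interleukin-6 signal transducer IL6ST had r of 0.97 with the chains, the liver-enriched factor CEBPA 0.96, the interleukin-1 receptor IL1R1 0.96 and the forkhead factor FOXA3 0.96. STAT3, which carries the interleukin-6 signal to the nucleus, had r of -0.76, FOXA2 -0.66 and the receptor IL6R -0.63. All of these varied less than the chains, with 12-array log2 ranges of 0.79 for IL6ST, 0.89 for CEBPA, 1.04 for IL1R1, 1.72 for FOXA3, 0.56 for STAT3, 0.85 for FOXA2 and 0.80 for IL6R.

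Between fractions, SP was compared with non-SP within the 6 pairs of the same treatment and replicate number. TCN1 was lower in SP in all 6 pairs, and FGA, FGB and ANGPTL4 were higher in SP in all 6. Over all 14649 genes, 4.68% were lower in SP in every pair and 6.03% were higher in every pair. With limma on the within-pair differences, 2 of the 8 genes had an adjusted p under 0.05 (FGA higher and TCN1 lower), against 2.47% of all genes (1.02% higher and 1.45% lower). Since these differences helped to choose the genes, nothing is read from either count. In untreated pairs alone 0 of 8 were called (background 0.0956%), and in anti-EpCAM pairs alone TCN1 was (background 0.246%). All fraction calls rest on the pairing and on a variance common to all levels, since 0 genes were called without the replicate block or with a trend of variance on level. Without anti-EpCAM pairs 1 and 3, whose GAPDH control differences of 0.54 and -0.38 were the largest of the 6, 27 genes were called rather than 362, with 0 of the 8 among them. That fit had fewer pairs, and 3143 genes had an unadjusted limma p under 0.05, against 2377 with all pairs. Left out alone, anti-EpCAM pairs 1, 2 and 3 gave 430, 72 and 218 calls, and untreated pairs 1, 2 and 3 gave 145, 184 and 90. The part of the GAPDH control difference in these counts was not tested.

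TCN1 encodes haptocorrin, which binds vitamin B12 in plasma and secretions. Its log2 values by 205513_at were 6.12, 8.30 and 8.51 in anti-EpCAM SP, against 6.83, 9.20 and 9.36 in anti-EpCAM non-SP cells. Untreated SP cells had 6.02, 7.06 and 8.48, against 6.31, 7.59 and 9.65 in untreated non-SP cells. SP was thus below non-SP in each pair although the ranges of the groups overlapped. The SP minus non-SP differences of TCN1 were -0.71, -0.90 and -0.85 in the anti-EpCAM pairs and -0.29, -0.53 and -1.17 in the untreated pairs. Their mean was -0.74 ± 0.31 (SD, n = 6), or 0.598 times the non-SP level.

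FGA differed by 0.39, 0.23 and 0.076 in the anti-EpCAM pairs and by 0.56, 0.28 and 0.24 in the untreated pairs, a mean of 0.30 ± 0.16 (SD, n = 6) or 1.23-fold. FGB differed by 0.39, 0.17 and 0.039 in the anti-EpCAM pairs and 0.47, 0.14 and 0.076 in the untreated pairs, a mean of 0.22 ± 0.18 or 1.16-fold. For FGA and FGB the pairs numbered 1, in which the level was lowest, gave the largest difference in each treatment. FGG differed by 0.23, -0.037 and 0.52 in the anti-EpCAM pairs and 0.67, 0.14 and -0.082 in the untreated pairs. Its mean of 0.24 ± 0.30 (1.18-fold) was as large as that of FGB, but only 4 of 6 pairs were higher in SP. These differences are small beside the span of the chains between replicates.

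Other probe sets of the chains gave a mixed account. FGA 205649_s_at averaged 0.27 ± 0.26 (SD, n = 6), with 5 of 6 pairs higher in SP, and 231671_at averaged 0.041 ± 0.15 with 3 of 6. FGB 216238_s_at ranged from -1.12 to 2.02 between pairs, far wider than 204988_at, although both follow the same replicates (r of 0.95 and 0.998 with the chain profile). The profile contains 204988_at itself, so the r of that probe set was bound to be high. FGB 216238_s_at averaged 0.24 ± 1.11.

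ANGPTL4, which inhibits lipoprotein lipase, had log2 values by 221009_s_at of 8.10, 8.62 and 8.50 in anti-EpCAM SP, against 7.71, 8.54 and 8.28 in anti-EpCAM non-SP cells. Untreated SP cells had 8.18, 8.75 and 8.76, against 8.04, 8.66 and 8.08 in untreated non-SP cells. Its differences were 0.40, 0.085 and 0.21 in the anti-EpCAM pairs and 0.14, 0.083 and 0.68 in the untreated pairs, a mean of 0.26 ± 0.23 (SD, n = 6) or 1.20-fold. By 223333_s_at the mean was 0.38 ± 0.30, with anti-EpCAM pair 1 on the other side at -0.18. The untreated pair numbered 3 carried the largest difference by 221009_s_at.

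C3, the central protein of the complement cascade, had values by 217767_at of 7.50, 8.69 and 8.70 in anti-EpCAM SP, against 7.40, 8.90 and 9.03 in anti-EpCAM non-SP cells. Untreated SP cells had 7.62, 7.87 and 8.40, against 7.41, 7.96 and 8.79 in untreated non-SP cells. Both pairs numbered 1 were higher in SP and the other 4 lower, a mean of -0.12 ± 0.24 (SD, n = 6). TF, which encodes transferrin, had 5.07, 6.68 and 6.44 in anti-EpCAM SP, against 4.90, 6.51 and 6.75 in anti-EpCAM non-SP cells by 214063_s_at. Untreated SP cells had TF values of 5.83, 6.20 and 6.63, against 5.64, 6.31 and 6.79 in untreated non-SP cells. Its difference averaged -0.0082 ± 0.21, with 3 of 6 pairs on each side, and that of SERPINA1 230318_at averaged -0.052 ± 0.21.

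The remaining probe sets added little. SERPINA1 211429_s_at averaged -0.13 ± 0.34 between fractions (SD, n = 6), 202833_s_at -0.13 ± 0.32 and 211428_at 0.090 ± 0.19. TF 203400_s_at, below the filter, averaged 0.24 ± 0.26, 214064_at 0.043 ± 0.29 and 220109_at 0.082 ± 0.13. All of these means were smaller than their SD over pairs.

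**Figure D4:**
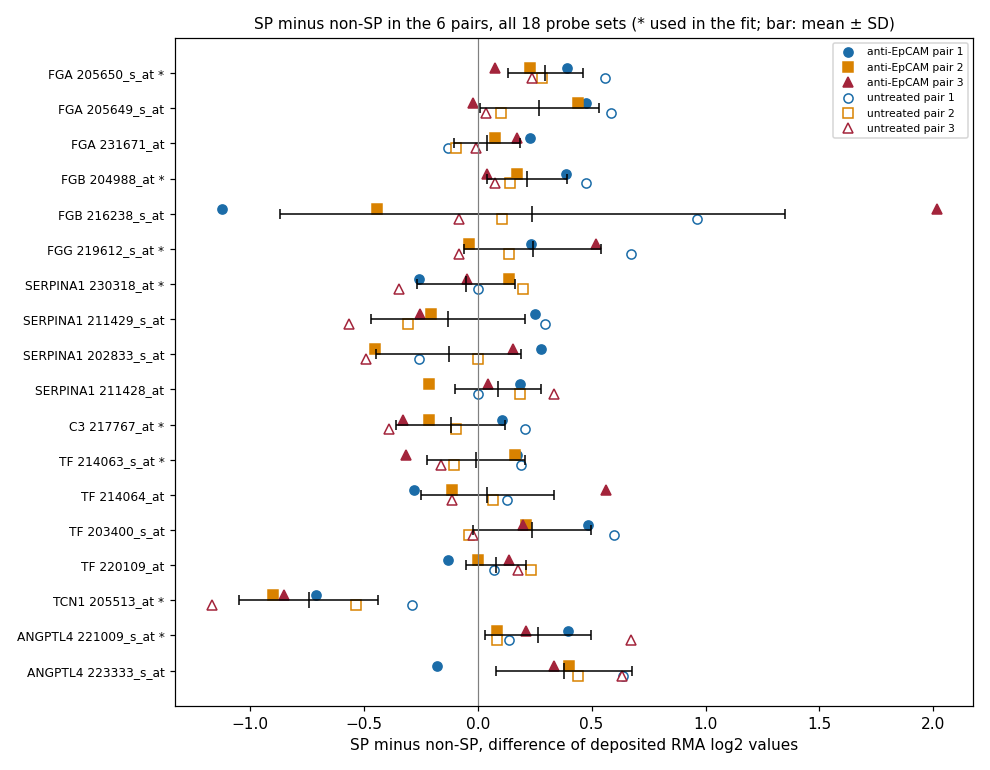
SP minus non-SP difference of the deposited log2 values in each of the 6 pairs for all 18 probe sets; filled symbols are anti-EpCAM pairs, open symbols untreated pairs, bars the mean ± SD (n = 6), and an asterisk marks the probe set used for the gene. TCN1 lies below 0 in all 6 pairs, and FGB 216238_s_at spreads from -1.12 to 2.02.

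The difference between fractions was also set against the antibody, as the anti-EpCAM minus the untreated pairs. No gene of 14649 passed limma's adjusted p of 0.05 for this interaction, and 249 had an unadjusted p under 0.05. It comes from the same 6 pair differences that helped to choose the 8 genes, so their estimates are descriptions. These lay between -0.16 (TCN1, SE 0.19) and 0.03 (TF, SE 0.16) on the log2 scale, with -0.13 ± 0.13 (SE) for FGA.

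For the antibody itself, anti-EpCAM and untreated cells were compared after quantile normalisation, 3 against 3. The antibody minus untreated estimates over both fractions were 0.26 for FGA, 0.23 for FGB, 0.35 for FGG, 0.47 for TCN1, 0.29 for C3, -0.27 for TF, -0.19 for ANGPTL4 and 0.006 for SERPINA1. All 8 lay within the SD between replicates of the gene, each taken by its brightest probe set. Other probe sets gave other values over both fractions. ANGPTL4 223333_s_at had 0.20, and TF had -0.16 by 214064_at and, below the filter, 0.53 by 203400_s_at and 0.044 by 220109_at. SERPINA1 211429_s_at had 0.20 and FGB 216238_s_at 0.53. The direction for TF and ANGPTL4 thus depended on the probe set. Replicates 1 and 3 had nearly the same chain levels in both treatments, and replicate 2 was higher in anti-EpCAM cells. Leaving out 1 pair in turn moved the estimate between -0.43 (without untreated pair 1) and 1.17 (without anti-EpCAM pair 1) for FGA and between -0.12 and 1.12 for TCN1, so neither has a settled direction. Of the 8 genes, 0 had groups that did not overlap, in non-SP (background 4.78%), in SP (4.05%) or over both (4.44%). Limma called 0 genes in each of these comparisons, with 242 in non-SP, 191 in SP and 214 over both at an unadjusted p under 0.05. The median estimate of the 8 genes over both fractions was 0.25, against 0.012 over all genes, or 0.091 over all genes on the deposited scale. Since the antibody differences helped to choose the 8 genes, nothing is read from this median or from their overlap counts. Treating the 12 arrays as independent called 1 gene, none of the 8.

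Genes that work with these proteins were compared between fractions in 8 lists holding 189 names, tested with limma over all 14649 genes. Over all genes, 1.02% were called higher and 1.45% lower in SP. No list had more than 22 tested genes, so nothing is read from the count of calls in a list. Among complement proteins and regulators, 17 of 29 were tested, with 1 called higher and 1 lower in SP. CD55, which shields cells from complement, was higher by 0.34 ± 0.063 (SE, limma adjusted p = 0.0238; 6 of 6 pairs). CFI, the protease that inactivates C3b, was lower by the log2 difference -0.46 ± 0.087 (limma adjusted p = 0.0246), also in 6 of 6 pairs. The median of the list was -0.032, against 0.0056 over all genes. Both other CD55 probe sets above the filter were higher in 5 of 6 pairs, by means of 0.20 and 0.29, and a dim CFI probe set had a mean of 0.070.

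Among regulators of fibrinogen and acute-phase genes, 16 of 21 were tested (median 0.12). Of these 1 was called higher and 0 lower, against 1.02% and 1.45% of all genes. SOCS3, the feedback inhibitor of interleukin-6 signalling, was higher by 0.36 ± 0.063 (SE, limma adjusted p = 0.0203; 6 of 6 pairs). Its other probe sets had means of 0.16, -0.0078 and -0.15, so the call rests on 227697_at. Averaging its probe sets above the filter left 0.17 (limma adjusted p = 0.145).

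Of lipoprotein lipase partners and PPAR targets 10 of 21 were tested (median 0.025). Here 1 was called higher and 0 lower, against 1.02% and 1.45% of all genes. PDK4, a kinase that restrains glucose oxidation, was higher by 0.33 ± 0.071 (SE, limma adjusted p = 0.0384; 6 of 6 pairs), and its other probe sets had means of 0.88 and 0.38. Each of these 4 calls was lost without at least 1 pair, with adjusted p of up to 0.101 for CD55, 0.0929 for CFI, 0.0939 for SOCS3 and 0.117 for PDK4. All 4 were also lost with a variance trend (adjusted p = 0.126) or without the replicate block (adjusted p = 1).

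The other 5 lists held no called gene. Of liver secretory and acute-phase proteins 16 of 35 were tested (median 3e-04), and RBP4, the plasma retinol carrier, had the smallest p at -0.27 (limma adjusted p = 0.109). Coagulation and fibrinolysis had 22 of 31 tested (median -0.033), led by F5, clotting factor V, at -0.53 (adjusted p = 0.0799). Iron uptake and storage had 14 of 17 tested (median -0.034), led by STEAP3, a reductase of endosomal iron, at -0.13 (adjusted p = 0.228). Vitamin B12 transport and use had 11 of 14 tested (median 0.030), led by MMAA, a mitochondrial chaperone of the vitamin, at 0.18 (adjusted p = 0.0996). ER folding and export had 20 of 21 tested (median 0.026), led by PDIA6, a disulfide isomerase, at 0.10 (adjusted p = 0.408). None of these genes passed the test.

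**Figure D5:**
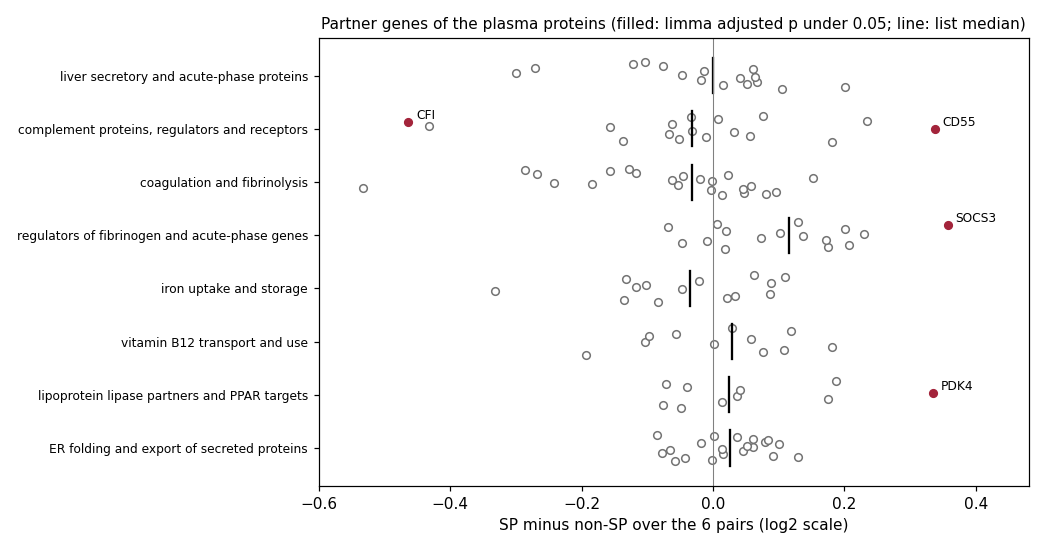
SP minus non-SP difference over the 6 pairs (log2) for the tested genes of 8 lists; each point is a gene, filled points have a limma adjusted p under 0.05, and vertical lines are list medians. CD55, SOCS3 and PDK4 lie above 0.3 and CFI at -0.46.

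The labelled cell type and sort were checked in the same arrays. All 8 lung epithelial markers were above the filter, with keratins KRT8 at 13.40 and KRT18 at 14.55 and CDH1 at 11.56 on the log2 scale. These are general epithelial genes. The lung genes NKX2-1 (6.08), NAPSA (6.39), SFTPB (7.54) and SFTPC (7.78) were much dimmer. Of 8 hepatocyte markers 7 had a probe set of their own and 5 of these were above the filter, but the defining genes ALB (3.94) and APOB (4.58) were below. Those above it were TTR (7.01), CYP3A4 (6.86), AHSG (6.84), TAT (5.85) and APOA1 (5.63). TTR, CYP3A4 and AHSG thus lay within the range of the dimmer lung genes. The log2 of the mean linear level of the hepatocyte list was 5.84 to 6.60 in anti-EpCAM SP, 5.75 to 6.70 in anti-EpCAM non-SP, 5.84 to 6.46 in untreated SP and 5.89 to 6.37 in untreated non-SP cells. Above the filter were also 2 of the 6 leukocyte markers with a probe set (7 listed), with PTPRC (4.31) below it, 4 of 6 fibroblast, 2 of 5 endothelial and 4 of 5 platelet markers. Of these lists COL1A1 alone was called, lower in SP. The dye exporter ABCG2 was higher in SP by 0.49 ± 0.056 (SE, limma adjusted p = 0.00375) and EPCAM by 0.26 ± 0.057 (adjusted p = 0.0435). The EPCAM call was lost without the filter (adjusted p = 0.0639), with the GAPDH covariate (0.0583) and without some single pairs (up to 0.166).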

How the data were processed

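Total RNA of 12 sorted A549 samples was hybridised to Affymetrix arrays. Per the submitters' processing notes, the authors' deposited log2 values come from RMA, 1 for each probe set; the version of RMA is not given in the sources used here. Values ran from 2.43 to 14.95. The SP and non-SP array of a treatment and number look normalised together, so fraction differences used deposited values and antibody contrasts used values quantile-normalised over all arrays.

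Controls (62 probe sets) were dropped. Of the others 41091 had 1 symbol in the probe table, 1801 several and 11721 none. Probe sets with a mean above the 40th percentile (5.39) were kept, and the brightest stood for its gene, leaving 14649 genes. Tests used limma 3.58.1 in R 4.3.3 (statmod 1.5.0), two-sided, without trend, with Benjamini-Hochberg adjustment over all genes at 0.05. The fits were tested on simulated data in which the variance of a gene did not depend on its level. That simulation therefore cannot speak to the loss of calls with a variance trend. A gene called higher or lower "over the pairs" comes from 6 differences, with equal weight for each treatment.

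Pairing rests on correlations of deviations from group means, 0.62 to 0.89 for SP with non-SP of the same treatment and number. The labels do not say that a pair shares a sort, and shared sorting and shared processing cannot be told apart. Treated and untreated arrays of a number had -0.18 to 0.73 and were not paired.

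The genes, the lists and the motifs were chosen with earlier results of these data known. Genes named were the 8, from each list up to 4 called genes or else that of smallest p, the 5 most like the chain profile, ABCG2 and EPCAM. The 7 regulators given with their correlations and ranges, OSMR, the markers named and LINC02064 fall outside this rule. They were named after their values were seen. Alternatives changed the block, normalisation, filter, probe set rule, variance model, a GAPDH covariate and the pairs kept.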

Additional observations from a re-analysis of the deposited data

Results flagged for a closer look

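ANGPTL4 by 223333_s_at differed by -0.18 between SP and non-SP cells in anti-EpCAM pair 1, on the other side of 0 from the other 5 pairs. Its gap to the nearest pair, a share of 0.6253 of the whole range, just passed Dixon's critical ratio for 6 values. Of 18 probe sets examined 1 stood out in this way, and chance alone marks about 1 in 20 groups.

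FGA by 231671_at was higher in SP in all 3 anti-EpCAM pairs (0.23, 0.075 and 0.17) and lower in SP in all 3 untreated pairs (-0.13, -0.095 and -0.0071), a difference of 0.24 between treatments. This difference was not tested, and FGA 205650_s_at was higher in SP in all 6 pairs. By ANGPTL4 223333_s_at the treatments did not overlap either, in the opposite direction. Its differences were -0.18, 0.40 and 0.33 in the anti-EpCAM pairs, below 0.64, 0.44 and 0.63 in the untreated pairs. The share of all probe sets that separate by treatment in this way is not given here, so nothing is read from these splits.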

How the results depend on the processing

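Without the replicate block, the fraction contrast called 0 genes over both treatments (362 with it), 0 in untreated (14) and 0 in anti-EpCAM cells (36), and 0 of the 8 plasma protein genes (2). With a variance trend, alone or with robust estimation, each of these counts was also 0; the trend-only and robust-only fits were chosen after seeing the data, and robust estimation alone gave 406, 20 and 49 genes and 2 of the 8. With the GAPDH control difference as a covariate, 9 untreated and 9 anti-EpCAM calls were left and 1 of the 8. Anti-EpCAM calls were 14 without the filter and 13 with probe sets averaged. Of the 8, 1 was called after quantile normalisation and 1 without the filter. Without anti-EpCAM pairs 1 and 3 the counts were 27 over both treatments, 0 in anti-EpCAM cells and 0 of the 8. Leaving out each pair gave 72 to 430, 0 to 16, 0 to 32 and 1 to 2. Over both treatments it gave 430, 72 and 218 without anti-EpCAM pairs 1, 2 and 3, and 145, 184 and 90 without untreated pairs 1, 2 and 3. Untreated calls were 0 without anti-EpCAM pair 2 or untreated pairs 2 or 3, and anti-EpCAM calls were 5, 0 and 9 without anti-EpCAM pairs 1, 2 and 3. Over both fractions, the antibody contrast called 1 gene rather than 0 with 12 arrays taken as independent, LINC02064 (0.64, limma adjusted p = 0.0323), named after its value was seen. The interaction called 0 genes throughout. CD55, CFI, SOCS3 and PDK4 kept the direction of their fraction difference in every alternative in which they were tested. Each had the same sign in all 6 pairs, so leaving out pairs could not change it. The variance and block settings leave the estimate itself unchanged, so nothing is read from this direction. CFI, with a mean of 6.571, was not tested with the filter at the 60th percentile (6.579). Counted for each gene in each alternative, their call was lost in 37 cases and kept in 26. Among the 8, other probe sets moved FGA (0.041 by 231671_at) and TF (0.24 by 203400_s_at) by more than the SD over pairs. Why these counts moved was not tested. With arrays, the number of pairs and the signal over background of dim probe sets limit what can be seen.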
